A study of Homo sapiens with 12 samples.

Results

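The genes described here build the centromere and the kinetochore, the protein assembly on each chromosome that holds spindle microtubules, together with the spindle checkpoint that watches it. Their 38 symbols were listed by function, with earlier results of these data known, and all 38 were found among the 18304 gene symbols of the deposited tables and were tested in both lines. By role they comprise CENP-A and its loading factors (4 genes), the constitutive centromere-associated network (13), the outer kinetochore (8), the spindle checkpoint (5), the SKA complex (3), the corona proteins (2) and the chromosomal passenger complex (3). The network was taken as the constitutive class, the last 5 roles as the mitotic class of 21 genes, and CENP-A with its loading factors was kept apart.

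Polyadenylated RNA of 2 established human acute myeloid leukaemia cell lines was sequenced after 36 h of culture with selinexor, a small molecule that inhibits the nuclear export receptor XPO1, or with its vehicle, DMSO. The 4 groups were MOLM-13 with 75 nM selinexor, MOLM-13 with vehicle, OCI-AML2 with 200 nM selinexor and OCI-AML2 with vehicle, each with 3 libraries from cultures stated to be biologically independent. Each line received a dose of its own, so line and dose cannot be told apart, and the labels give no genotype beyond the line. The comparison asks how transcripts of these genes differed between selinexor and vehicle in each line, and whether the parts present through the cell cycle and the parts built in mitosis differed in the same way.

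CENP-A, a variant of histone H3, marks the centromere, and the constitutive network binds its nucleosomes through the whole cell cycle. As cells enter mitosis this platform recruits the outer kinetochore, whose NDC80 complex grips microtubules, while unattached kinetochores let the checkpoint proteins hold back the anaphase-promoting complex. Most of these genes are transcribed periodically in dividing cells, with highest transcript levels around G2 and mitosis for many of the mitotic parts, and leukaemia lines in culture divide continuously.

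Total counts per library were 8114892 to 9711704 in MOLM-13 with selinexor, 8160133 to 9444344 in MOLM-13 with vehicle, 8650518 to 9774423 in OCI-AML2 with selinexor and 9506571 to 11769061 in OCI-AML2 with vehicle. Within groups, Spearman correlations of libraries lay between 0.986 and 0.990. Levels are given as CPM (counts scaled to a common library total), adjusted by the trimmed mean of M values (TMM), and 3 counts correspond to 0.249 to 0.375 CPM. The myeloid markers PTPRC, CD33 and SPI1 were present in both lines, between 36.5 and 428 CPM as group means, and KIT was at or under 0.491 CPM. Of 14 markers of other cell types, NCAM1, PECAM1 and, in MOLM-13, KRT18 were tested, and KRT19, COL1A1 and COL1A2 were at or under 1.02 CPM in all 4 groups. NCAM1 averaged 108 CPM with selinexor and 128 CPM with vehicle in MOLM-13, and 93.9 CPM with selinexor and 58.8 CPM with vehicle in OCI-AML2. In RNA from whole cultures, fewer cells of a type and less RNA per cell cannot be told apart.

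Nearly all transcripts of the centromere and kinetochore were lower with selinexor in both lines. In MOLM-13, 36 of 38 fell and 0 rose (adjusted p under 0.05, edgeR's quasi-likelihood F test, Benjamini-Hochberg adjusted over 11807 genes), against 31.8% of all genes tested that were lower and 63.6% that were called in either direction. In OCI-AML2, 35 of 38 fell and 0 rose, against 31.8% of 12086 genes that were lower and 63.1% called in either direction. The median log2 fold change of the 38 was -1.49 in MOLM-13, beside 0.0091 over all genes, and -0.97 in OCI-AML2, beside -0.0016 over all genes. At least 2-fold lower were 28 of 38 in MOLM-13, against 3.57% of all genes, and 18 of 38 in OCI-AML2, against 2.85%.

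The 35 that fell in OCI-AML2 all fell in MOLM-13 as well, and NSL1 fell in MOLM-13 alone among the calls, while CENPC and CENPT passed the test in neither line. The 3 selinexor libraries lay entirely below the 3 vehicle libraries for 36 of 38 genes in MOLM-13, against 32.8% of all genes, and for 36 of 38 in OCI-AML2, against 33.3%. The summed level of the 38 was 1339.8, 1311 and 1310.3 CPM with selinexor, against 2972, 2949.6 and 2932 CPM with vehicle in MOLM-13. For OCI-AML2 the same sum was 1689.5, 1665 and 1674 CPM with selinexor, against 3184, 3102 and 3170.2 CPM with vehicle. The selinexor libraries of a group differed little from each other beside their distance from vehicle. The sum of monocyte and granulocyte markers in MOLM-13 was 7253, 7396 and 7033 CPM with selinexor, against 3803, 3933 and 3960.2 CPM with vehicle. Of 14 tested markers 8 were higher and 2 lower, against 31.8% of all genes higher and 31.8% lower. In OCI-AML2 the marker sum was 15045, 15199.8 and 15411 CPM with selinexor, against 4233, 4057 and 4259 CPM with vehicle. There 13 of 16 were higher and 2 lower, against 31.3% and 31.8% of all genes. A few abundant genes dominate these sums. Mean PRTN3 was 2309 CPM with selinexor and 915 CPM with vehicle in MOLM-13, and LYZ 9580 and 1735 CPM in OCI-AML2. CTSG and FCGR1A fell in MOLM-13, and FCGR1A and PRTN3 in OCI-AML2. The part of these markers in the falls was not tested.

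**Figure D1:**
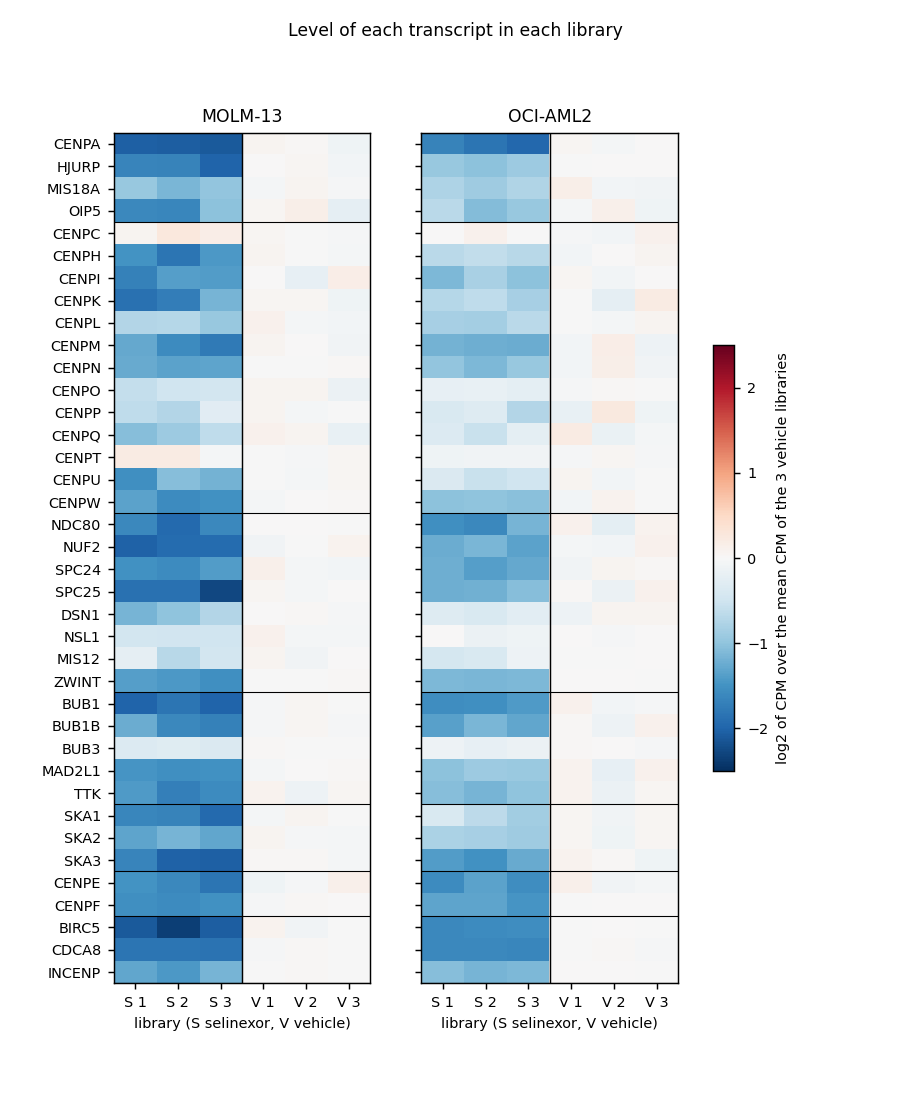
Level of each of the 38 transcripts (rows, grouped by role) in each of the 12 libraries (columns, selinexor left of vehicle), as log2 of CPM over the mean of the 3 vehicle libraries of that line; blue is lower and red is higher. The selinexor columns are blue in nearly every row, and CENPC and CENPT are the pale rows of the constitutive network.

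Many promoters of genes expressed in G2 and mitosis carry a cell cycle genes homology region (CHR), read by the MuvB complexes, and CCAAT boxes, read by NF-Y. Promoters of 31 of the 38 genes were matched in RefSeq (GRCh38.p14), each from 250 bases before to 50 bases after the transcription start. BIRC5, BUB3, CENPH, CENPL, CENPM, MIS18A and TTK were not matched. A RefSeq start can lie inside the GENCODE gene: the CENPI window begins at chrX:101100808 and the gene at 101098218. Which start these cells use was not tested. The letters TTTGAA or TTCGAA were searched on both strands as CHR and CCAAT on both strands as the box, and the last letter of a CHR may be the first of a reverse CCAAT box. A CHR stood in 19 of 31 promoters (61.3%), against 13.5% of 15842 protein-coding promoters of the same length. By class these were 12 of 18 mitotic promoters (66.7%), 4 of 10 constitutive ones (40%) and 3 of 3 of CENP-A and its loading factors. Both a CHR and a CCAAT box were in 13 of 31 (41.9%), against 5.57% of protein-coding promoters.

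Genes with a CHR in the window had a median log2 fold change of -1.55 in MOLM-13 (n = 19), against -1.10 for the 12 without. In OCI-AML2 these medians were -1.14 and -0.47. The share with a CHR also differed by class, so CHR and class cannot be told apart in this split over all classes. Constitutive members in MOLM-13 ranged from -1.47 (CENPW) to 0.17 (CENPC) with a CHR, and from -1.56 (CENPK) to 0.12 (CENPT) without. Mitotic members there ranged from -1.97 (SPC25) to -1.30 (INCENP) with a CHR, and from -1.64 (CENPE) to -0.45 (MIS12) without. In OCI-AML2 the mitotic ranges were -1.62 (CDCA8) to -0.62 (SKA1) and -1.48 (CENPE) to -0.078 (NSL1). Both sets, with and without a CHR, held exceptions, such as CENPE. Its window holds no CHR, and its log2 fold change was -1.64 ± 0.086 (SE) in MOLM-13 and -1.48 ± 0.079 in OCI-AML2. The 6 promoters shown are examples, and genes with large falls and no CHR, such as CENPE, are not among them. CENPA (chr2:26785806-26786105 on the plus strand), BUB1 (chr2:110678014-110678313 on the minus strand) and CDCA8 (chr1:37692266-37692565 on the plus strand) are genes with large falls whose promoters hold both motifs. CENPC (chr4:67545454-67545753 on the minus strand) holds both motifs and did not pass the test. CENPT (chr16:67847644-67847943 on the minus strand) and NSL1 (chr1:212791728-212792027 on the minus strand) are genes with smaller changes whose windows hold neither. NSL1 still passed the test as lower in MOLM-13 (-0.47). Capitals mark CHR and CCAAT letters on either strand, and in CDCA8 the CHR shares its last base with a reverse CCAAT box.
CENPA: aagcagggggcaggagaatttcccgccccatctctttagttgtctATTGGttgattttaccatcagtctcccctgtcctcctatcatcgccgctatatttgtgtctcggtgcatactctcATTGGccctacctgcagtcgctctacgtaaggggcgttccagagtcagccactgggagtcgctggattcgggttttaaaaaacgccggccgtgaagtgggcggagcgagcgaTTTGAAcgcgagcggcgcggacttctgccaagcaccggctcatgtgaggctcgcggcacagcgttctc
BUB1: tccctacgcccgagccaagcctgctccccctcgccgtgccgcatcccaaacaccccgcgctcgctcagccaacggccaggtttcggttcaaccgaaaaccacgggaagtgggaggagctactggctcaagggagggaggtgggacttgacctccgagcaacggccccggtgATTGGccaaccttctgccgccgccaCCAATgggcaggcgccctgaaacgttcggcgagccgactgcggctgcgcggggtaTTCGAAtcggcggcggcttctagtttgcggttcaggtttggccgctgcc
CDCA8: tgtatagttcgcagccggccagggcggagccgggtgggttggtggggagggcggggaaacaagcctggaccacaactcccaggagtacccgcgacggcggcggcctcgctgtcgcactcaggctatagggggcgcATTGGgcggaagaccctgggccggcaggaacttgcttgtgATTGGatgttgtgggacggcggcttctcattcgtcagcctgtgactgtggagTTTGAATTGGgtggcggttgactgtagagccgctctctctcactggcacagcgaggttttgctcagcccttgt
CENPC: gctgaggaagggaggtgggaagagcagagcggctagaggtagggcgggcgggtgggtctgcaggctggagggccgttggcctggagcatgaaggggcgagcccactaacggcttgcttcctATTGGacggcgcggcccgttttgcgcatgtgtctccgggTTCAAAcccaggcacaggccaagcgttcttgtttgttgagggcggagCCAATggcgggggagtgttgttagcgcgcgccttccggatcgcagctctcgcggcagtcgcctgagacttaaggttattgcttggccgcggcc
CENPT: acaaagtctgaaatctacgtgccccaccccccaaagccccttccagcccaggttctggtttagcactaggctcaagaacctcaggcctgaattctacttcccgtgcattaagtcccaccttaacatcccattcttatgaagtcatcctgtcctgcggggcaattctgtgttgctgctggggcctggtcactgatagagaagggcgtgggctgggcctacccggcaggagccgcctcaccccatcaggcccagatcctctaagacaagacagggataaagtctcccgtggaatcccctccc
NSL1: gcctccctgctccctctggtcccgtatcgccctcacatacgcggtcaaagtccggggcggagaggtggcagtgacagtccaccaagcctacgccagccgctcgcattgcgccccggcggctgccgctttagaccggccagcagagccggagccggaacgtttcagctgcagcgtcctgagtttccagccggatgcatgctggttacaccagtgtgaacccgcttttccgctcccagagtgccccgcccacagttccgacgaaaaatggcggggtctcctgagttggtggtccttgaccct
The CHR begins 18 bases before the start in CENPA, 23 before it in CDCA8 and 90 before it in CENPC. In BUB1 the CHR begins 1 base after the start. A match is a description of these letters and was not tested as a binding site.

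CENP-A and its loading factors all fell in both lines, against 31.8% of all genes lower in each. CENPA encodes the histone variant itself. In MOLM-13 it had 7.61, 7.51 and 7.37 CPM with selinexor, against 32.9, 32.2 and 29.2 CPM with vehicle. In OCI-AML2 cells CENPA had 13.7, 12.3 and 11.3 CPM with selinexor, against 45.2, 42.1 and 43.9 CPM with vehicle. No selinexor library came near the lowest vehicle library, and CENPA was 4.18-fold lower in MOLM-13 (log2 fold change -2.06 ± 0.12, SE) and 3.53-fold lower in OCI-AML2 (-1.82 ± 0.098). HJURP, the chaperone that places CENP-A on DNA, followed. It had 17.6, 17.6 and 13.9 CPM with selinexor, against 55.9, 57.995 and 53.3 CPM with vehicle in MOLM-13. In OCI-AML2 cells HJURP had 29.1, 27.8 and 29.97 CPM with selinexor, against 55.6, 56.4 and 56.8 CPM with vehicle. The HJURP groups were separate in both lines, with a fall of 3.38-fold in MOLM-13 and 1.94-fold in OCI-AML2.

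MIS18A and OIP5 are subunits of the MIS18 complex that licenses the centromere for new CENP-A. MIS18A had 29.8, 25.9 and 28.9 CPM with selinexor, against 55.7, 60.3 and 55.7 CPM with vehicle in MOLM-13. In OCI-AML2 cells MIS18A had 32.7, 30.3 and 33.1 CPM with selinexor, against 61.8, 53.4 and 52.5 CPM with vehicle. Its libraries did not overlap in either line, and it fell 2.04-fold in MOLM-13 and 1.74-fold in OCI-AML2. OIP5 had 5.88, 5.84 and 8.87 CPM with selinexor, against 18.6, 20.02 and 15.5 CPM with vehicle in MOLM-13. In OCI-AML2 cells OIP5 had 13.3, 10.03 and 11.04 CPM with selinexor, against 20.6, 23.2 and 19.7 CPM with vehicle. OIP5 was lower in every selinexor library, with log2 fold changes of -1.40 ± 0.15 (SE) in MOLM-13 and -0.89 ± 0.12 in OCI-AML2. Without strand, reads of OIP5 cannot be told apart from those of OIP5-AS1 over the 470 exonic bases they share.

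The constitutive network varied widely among its members. In each line 11 of its 13 transcripts fell and 2 did not pass the test, against 31.8% of all genes lower. The median log2 fold change was -1.25 in MOLM-13 and -0.66 in OCI-AML2. At least 2-fold lower were 7 of 13 in MOLM-13, against 3.57% of all genes, and 3 of 13 in OCI-AML2, against 2.85%. CENPC and CENPT, the pair that connects the network to the outer kinetochore, were the exceptions. CENP-C binds CENP-A nucleosomes and reaches out to the MIS12 complex. CENPC had 35.3, 40.1 and 37.7 CPM with selinexor, against 34.8, 33.2 and 32.9 CPM with vehicle in MOLM-13. In OCI-AML2 cells CENPC had 29.02, 31.1 and 28.6 CPM with selinexor, against 28.03, 27.3 and 31.02 CPM with vehicle. All 3 selinexor libraries of MOLM-13 were above the vehicle ones by a small margin, while those of OCI-AML2 overlapped the vehicle ones. The log2 fold changes were 0.17 ± 0.085 (SE, adjusted p = 0.0717, edgeR's quasi-likelihood F test, Benjamini-Hochberg adjusted) in MOLM-13 and 0.039 ± 0.089 (adjusted p = 0.721) in OCI-AML2. Without the first selinexor library of MOLM-13, CENPC passed the test there as higher (0.21, edgeR adjusted p = 0.0429), as it did under upper quartile scaling (0.24), which moved the median over all genes to 0.0793.

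CENP-T, a histone-fold protein, recruits NDC80 complexes directly. CENPT had 65.2, 64.9 and 54.4 CPM with selinexor, against 56.03, 55.2 and 58.3 CPM with vehicle in MOLM-13. In OCI-AML2 cells CENPT had 60.5, 61.9 and 61.7 CPM with selinexor, against 64.4, 67.9 and 64.2 CPM with vehicle. The MOLM-13 groups overlapped, with 2 selinexor libraries above vehicle and 1 below it, and those of OCI-AML2 were separate by a small margin. The log2 fold changes were 0.12 ± 0.070 (SE, adjusted p = 0.11, edgeR's quasi-likelihood F test, Benjamini-Hochberg adjusted) in MOLM-13 and -0.095 ± 0.064 (adjusted p = 0.193) in OCI-AML2. Without the third selinexor library of MOLM-13, CENPT passed as higher there (0.20, edgeR adjusted p = 0.0133), as it did under upper quartile scaling (0.19) with that same shift of all genes. The exons of CENPT share 1086 bases with genes on the other strand. Its histone-fold partner CENPW fell instead: it had 28.5, 24.1 and 25.4 CPM with selinexor, against 69.9, 72.8 and 73.4 CPM with vehicle in MOLM-13. In OCI-AML2 cells CENPW had 42.9, 43.6 and 42.6 CPM with selinexor, against 83.8, 92.6 and 86.4 CPM with vehicle. No selinexor library of CENPW reached the vehicle range, and the fall was 2.78-fold in MOLM-13 and 2.04-fold in OCI-AML2.

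CENP-H, CENP-I, CENP-K and CENP-M form one module of the network. All 4 transcripts fell in both lines, against 31.8% of all genes lower in each. CENPH had 21.9, 17.3 and 22.9 CPM with selinexor, against 64.2, 60.8 and 59.8 CPM with vehicle in MOLM-13. In OCI-AML2 cells CENPH had 20.3, 21.03 and 19.98 CPM with selinexor, against 30.6, 32.3 and 33.7 CPM with vehicle. The fall was 2.99-fold in MOLM-13 and 1.58-fold in OCI-AML2. CENPK moved in a like way. It had 9.11, 10.01 and 14.7 CPM with selinexor, against 34.5, 34.3 and 30.7 CPM with vehicle in MOLM-13. In OCI-AML2 cells CENPK had 19.3, 20.4 and 17.8 CPM with selinexor, against 31.2, 27.04 and 36.6 CPM with vehicle. The third selinexor library of MOLM-13 was the highest of its group and still below vehicle. CENPM had 11.9, 9.698 and 8.497 CPM with selinexor, against 30.3, 29.2 and 27.01 CPM with vehicle in MOLM-13. In OCI-AML2 cells CENPM had 25.6, 25.2 and 24.8 CPM with selinexor, against 55.6, 66.04 and 53.7 CPM with vehicle. Its falls were among the larger ones of the network, 2.86-fold in MOLM-13 and 2.32-fold in OCI-AML2. CENPI completes the module. It had 4.73, 5.84 and 5.75 CPM with selinexor, against 15.2, 13.2 and 17.1 CPM with vehicle in MOLM-13. In OCI-AML2 cells CENPI had 6.96, 8.63 and 7.47 CPM with selinexor, against 15.7, 14.5 and 15.3 CPM with vehicle. Its groups were separate, and its standard error was the widest of the 38 in each line, at -1.48 ± 0.16 (log2, SE) in MOLM-13 and -0.98 ± 0.14 in OCI-AML2.

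CENP-N reads the CENP-A nucleosome together with CENP-L. CENPN had 28.4, 26.9 and 26.99 CPM with selinexor, against 66.7, 66.97 and 69.1 CPM with vehicle in MOLM-13. In OCI-AML2 cells CENPN had 29.96, 27.3 and 30.9 CPM with selinexor, against 56.8, 65.5 and 56.2 CPM with vehicle. Its groups were far apart, though 886 of its exonic bases lie opposite other genes, CMC2 among them. CENPL fell by nearly the same amount in both lines, with log2 fold changes of -0.78 ± 0.090 (SE) in MOLM-13 and -0.78 ± 0.074 in OCI-AML2.

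CENP-O, CENP-P, CENP-Q and CENP-U form a further module. Its 4 transcripts fell in both lines, CENPO least in each, against 31.8% of all genes lower in each line. CENPU, whose protein docks the kinase PLK1, fell most of the 4 in MOLM-13, with 16.3, 22.5 and 20.9 CPM with selinexor, against 47.3, 45.96 and 48.7 CPM with vehicle. In OCI-AML2 cells CENPU had 46.6, 40.7 and 42.3 CPM with selinexor, against 63.1, 57.1 and 59.4 CPM with vehicle. The selinexor libraries of OCI-AML2 stayed closer to vehicle, at 1.39-fold lower, than those of MOLM-13 at 2.37-fold lower. CENPQ had 8.77, 9.802 and 11.9 CPM with selinexor, against 19.9, 19.3 and 16.1 CPM with vehicle in MOLM-13. In OCI-AML2 cells CENPQ had 20.998, 18.01 and 22.4 CPM with selinexor, against 30.4, 23.6 and 25.6 CPM with vehicle. The groups of CENPQ were separate in both lines, with an adjusted p of 2.39e-08 in MOLM-13 and 0.00272 in OCI-AML2 (edgeR's quasi-likelihood F test, Benjamini-Hochberg adjusted). CENPO had 58.2, 62.4 and 64.1 CPM with selinexor, against 93.1, 93.01 and 79.5 CPM with vehicle in MOLM-13. In OCI-AML2 cells CENPO had 94.96, 96.1 and 92.2 CPM with selinexor, against 108, 113 and 109 CPM with vehicle. Its falls were small, with the third vehicle library of MOLM-13 nearest to selinexor, 1.44-fold in MOLM-13 and 1.16-fold in OCI-AML2. CENPP had 19.3, 17.8 and 24.4 CPM with selinexor, against 30.99, 28.7 and 29.5 CPM with vehicle in MOLM-13. In OCI-AML2 cells CENPP had 24.1, 25.2 and 19.03 CPM with selinexor, against 27.7, 37.5 and 29.3 CPM with vehicle. CENPP fell 1.46-fold in MOLM-13 and 1.39-fold in OCI-AML2. Exons of other genes on the opposite strand cover 1735 bases of CENPO (ADCY3 and PTRHD1) and 4180 bases of CENPP (IPPK and NOL8 among them), and the part of their reads in the changes of CENPO and CENPP was not tested. Shorter overlaps of this kind were found for CENPU (PRIMPOL, 346 bases) and MIS12 (DERL2, 301 bases).

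**Figure D2:**
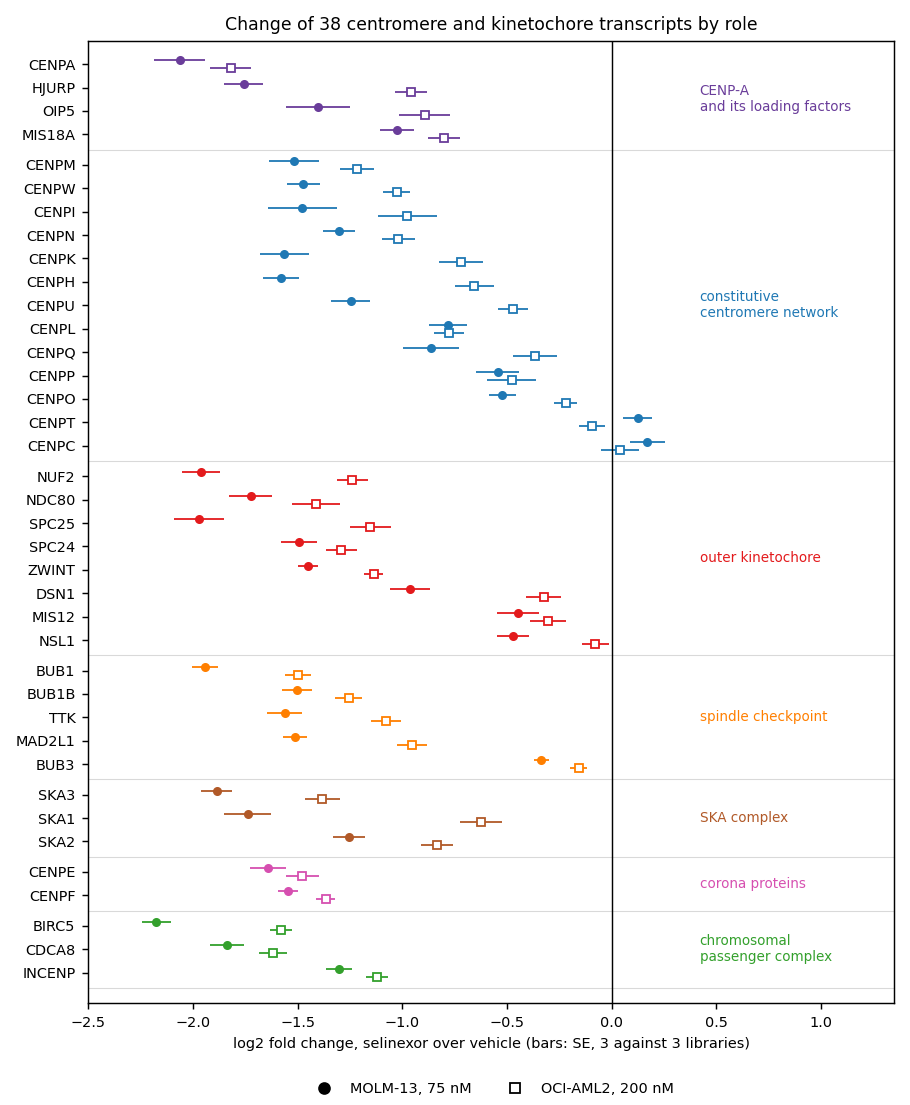
Log2 fold change of each transcript, selinexor over vehicle, with its standard error from the fit of 3 against 3 libraries; filled circles are MOLM-13 (75 nM) and open squares OCI-AML2 (200 nM), ordered by mean change within each role. Nearly all points lie left of 0, and CENPT, CENPC, NSL1 and BUB3 lie closest to it.

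At the outer kinetochore, 8 of 8 transcripts fell in MOLM-13 and 7 of 8 in OCI-AML2, against 31.8% of all genes in each. Their median log2 fold change was -1.47 in MOLM-13 and -1.14 in OCI-AML2. The 4 subunits of the NDC80 complex, the microtubule-binding rod, fell together. NDC80 and NUF2 form its microtubule end. NDC80 had 13.3, 10.6 and 13.2 CPM with selinexor, against 41.2, 40.8 and 40.2 CPM with vehicle in MOLM-13. In OCI-AML2 cells NDC80 had 13.9, 13.2 and 18.1 CPM with selinexor, against 43.7, 34.2 and 43.1 CPM with vehicle. The level with selinexor averaged 3.304-fold below vehicle in MOLM-13 (log2 fold change -1.72 ± 0.10, SE) and 2.66-fold below it in OCI-AML2 (-1.41 ± 0.11). NUF2 showed the same separation. It had 14.5, 15.5 and 15.5 CPM with selinexor, against 55.5, 58.7 and 63.03 CPM with vehicle in MOLM-13. In OCI-AML2 cells NUF2 had 31.3, 33.4 and 29.2 CPM with selinexor, against 71.7, 70.3 and 79.7 CPM with vehicle. The fall was 3.89-fold in MOLM-13 and 2.36-fold in OCI-AML2.

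SPC24 and SPC25 form the end of the rod that faces the centromere. SPC24 had 20.2, 19.6 and 21.99 CPM with selinexor, against 62.96, 55.7 and 55.2 CPM with vehicle in MOLM-13. In OCI-AML2 cells SPC24 had 28.7, 25.9 and 27.8 CPM with selinexor, against 63.3, 69.9 and 67.95 CPM with vehicle. These were falls in every library, 2.81-fold in MOLM-13 and 2.45-fold in OCI-AML2. SPC25 fell further in MOLM-13, where it had 8.996, 8.97 and 6.75 CPM with selinexor, against 33.7, 31.4 and 32.7 CPM with vehicle. In OCI-AML2 cells SPC25 had 16.2, 16.3 and 17.98 CPM with selinexor, against 38.1, 33.8 and 40.5 CPM with vehicle. The third selinexor library of MOLM-13 was the lowest of that line. Per kilobase of exon, the 4 subunits lay between 3.44 and 7.25 CPM per kb with selinexor in MOLM-13 and between 11.3 and 20.4 with vehicle. Their counterparts in OCI-AML2 ranged over 4.18 to 9.66 CPM per kb with selinexor and 11.2 to 23.6 with vehicle. NDC80 had the lowest and SPC24 the highest level per length in all 4 groups.

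The MIS12 complex, the bridge between centromere and NDC80, had smaller log2 fold changes than the rod it carries. DSN1 had 17.6, 19.7 and 23.99 CPM with selinexor, against 39.7, 40.3 and 39.1 CPM with vehicle in MOLM-13. In OCI-AML2 cells DSN1 had 31.03, 29.5 and 32.1 CPM with selinexor, against 35.1, 40.2 and 40.4 CPM with vehicle. It fell 1.95-fold in MOLM-13 and 1.25-fold in OCI-AML2. NSL1 is another bridge subunit. It had 38.6, 38.2 and 37.5 CPM with selinexor, against 56.8, 50.9 and 51.1 CPM with vehicle in MOLM-13. In OCI-AML2 cells NSL1 had 63.3, 56.7 and 58.2 CPM with selinexor, against 63.5, 61.6 and 62.9 CPM with vehicle. The MOLM-13 groups were separate and those of OCI-AML2 overlapped, with 1 selinexor library among the vehicle ones. Its log2 fold change was -0.47 ± 0.077 (SE, adjusted p = 8.53e-08, edgeR's quasi-likelihood F test, Benjamini-Hochberg adjusted) in MOLM-13 and -0.078 ± 0.065 (adjusted p = 0.302) in OCI-AML2, and the test of the difference between the lines gave -0.44 ± 0.10 (adjusted p = 0.00029). MIS12 had 25.5, 18.2 and 21.6 CPM with selinexor, against 30.99, 28.01 and 29.9 CPM with vehicle in MOLM-13. In OCI-AML2 cells MIS12 had 26.7, 27.8 and 32.8 CPM with selinexor, against 35.8, 35.9 and 36.4 CPM with vehicle. Its groups did not overlap, and the log2 fold change was -0.45 ± 0.10 (SE, adjusted p = 6.44e-05, edgeR's quasi-likelihood F test, Benjamini-Hochberg adjusted) in MOLM-13 and -0.31 ± 0.087 (adjusted p = 0.00233) in OCI-AML2. ZWINT, which binds KNL1 and helps to bring checkpoint proteins to the kinetochore, fell like the NDC80 rod. It had 89.2, 85.6 and 80.5 CPM with selinexor, against 231, 230.3 and 237 CPM with vehicle in MOLM-13. In OCI-AML2 cells ZWINT had 97.2, 95.8 and 97.2 CPM with selinexor, against 214, 213 and 210.5 CPM with vehicle. ZWINT was 2.73-fold lower in MOLM-13 and 2.199-fold lower in OCI-AML2.

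All 5 checkpoint transcripts fell in both lines, against 31.8% of all genes lower in each, and BUB3 fell by little. TTK (MPS1) is the kinase that starts checkpoint signalling. TTK had 25.4, 20.8 and 22.9 CPM with selinexor, against 71.6, 61.7 and 70.04 CPM with vehicle in MOLM-13. In OCI-AML2 cells TTK had 39.2, 36.6 and 40.7 CPM with selinexor, against 87.5, 73.999 and 84.4 CPM with vehicle. It was lower in each selinexor library, 2.95-fold in MOLM-13 and 2.11-fold in OCI-AML2. BUB1, the kinase that marks centromeric chromatin for shugoshin, fell most of the 5. BUB1 had 37.1, 42.02 and 37.4 CPM with selinexor, against 146, 154 and 149 CPM with vehicle in MOLM-13. In OCI-AML2 cells BUB1 had 48.8, 48.96 and 53.2 CPM with selinexor, against 153, 135 and 139 CPM with vehicle. The groups lay far apart in both lines, and the log2 fold change was -1.94 ± 0.061 (SE) in MOLM-13 and -1.50 ± 0.061 in OCI-AML2.

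BUB1B (BUBR1), BUB3 and MAD2L1 (MAD2) join CDC20 in the complex that inhibits the anaphase-promoting complex. BUB1B had 43.3, 33.5 and 31.9 CPM with selinexor, against 101, 106 and 101 CPM with vehicle in MOLM-13. In OCI-AML2 cells BUB1B had 52.1, 60.5 and 53.8 CPM with selinexor, against 135, 121 and 142 CPM with vehicle. It fell 2.83-fold in MOLM-13 and 2.39-fold in OCI-AML2, with 457 exonic bases shared with the readthrough gene BUB1B-PAK6. MAD2L1 had 53.98, 51.5 and 52.6 CPM with selinexor, against 145, 152 and 153 CPM with vehicle in MOLM-13. In OCI-AML2 cells MAD2L1 had 91.9, 99.2 and 97.8 CPM with selinexor, against 197, 162 and 201 CPM with vehicle. Its groups were widely separate, with falls of 2.85-fold in MOLM-13 and 1.94-fold in OCI-AML2. BUB3, the adaptor that carries BUB1 and BUB1B to kinetochores, had 292, 303 and 287 CPM with selinexor, against 377, 369 and 369 CPM with vehicle in MOLM-13. In OCI-AML2 cells BUB3 had 209.5, 199 and 209 CPM with selinexor, against 234, 231 and 225 CPM with vehicle. Its libraries were close together and the groups separate: 1.26-fold (log2 fold change -0.34 ± 0.036, SE, adjusted p = 4.34e-14, edgeR's quasi-likelihood F test, Benjamini-Hochberg adjusted) in MOLM-13 and 1.12-fold (-0.16 ± 0.042, adjusted p = 0.00122) in OCI-AML2.

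The SKA complex lets kinetochores keep hold of microtubules that shorten. Its 3 transcripts fell in both lines, against 31.8% of all genes lower in each. SKA1 had 10.7, 10.4 and 8.62 CPM with selinexor, against 31.97, 34.7 and 33.2 CPM with vehicle in MOLM-13. In OCI-AML2 cells SKA1 had 25.95, 21.6 and 18.6 CPM with selinexor, against 34.8, 31.7 and 35.1 CPM with vehicle. The lines stood far apart here, with a fall of 3.34-fold in MOLM-13 and 1.54-fold in OCI-AML2. SKA3 fell strongly in both. It had 31.9, 24.5 and 24.4 CPM with selinexor, against 101, 101 and 96.6 CPM with vehicle in MOLM-13. In OCI-AML2 cells SKA3 had 22.1, 20.2 and 24.1 CPM with selinexor, against 61.2, 58.6 and 53.4 CPM with vehicle. SKA3 was 3.697-fold lower in MOLM-13 and 2.61-fold lower in OCI-AML2. SKA2, the third subunit, had 28.3, 31.9 and 28.7 CPM with selinexor, against 74.7, 69.7 and 68.4 CPM with vehicle in MOLM-13. In OCI-AML2 cells SKA2 had 31.1, 30.2 and 29.1 CPM with selinexor, against 55.2, 50.1 and 55.9 CPM with vehicle. Every selinexor library of SKA2 was below vehicle, by 2.38-fold on average in MOLM-13 and 1.78-fold in OCI-AML2.

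The corona is the fibrous outer layer of the unattached kinetochore. CENPE, a kinesin motor of the corona that carries chromosomes to the spindle equator, had 22.7, 20.9 and 17.99 CPM with selinexor, against 59.2, 63.1 and 69.8 CPM with vehicle in MOLM-13. In OCI-AML2 cells CENPE had 24.2, 28.5 and 24.7 CPM with selinexor, against 78.7, 67.8 and 69.8 CPM with vehicle. It was 3.12-fold lower in MOLM-13 and 2.79-fold lower in OCI-AML2. CENPF is a large coiled-coil protein of the same layer. It had 76.2, 74.3 and 77.6 CPM with selinexor, against 217, 225 and 224 CPM with vehicle in MOLM-13. In OCI-AML2 cells CENPF had 123, 123 and 109.6 CPM with selinexor, against 302, 305 and 308 CPM with vehicle. Its selinexor libraries differed little among themselves, and the log2 fold change was -1.55 ± 0.048 (SE) in MOLM-13 and -1.37 ± 0.046 in OCI-AML2. Transcripts of 12 mitotic kinesins, a list that does not hold CENPE, were all lower in both lines, against 31.8% of all genes in each. Their median was -1.78 in MOLM-13 and -1.43 in OCI-AML2.

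The chromosomal passenger complex corrects faulty attachments at the inner centromere, and its 3 listed transcripts had a median log2 fold change of -1.84 in MOLM-13 and -1.58 in OCI-AML2. BIRC5 (survivin), which binds phosphorylated histone H3, had the lowest log2 fold change of the 38 in MOLM-13. It had 31.1, 26.2 and 32.2 CPM with selinexor, against 143, 126 and 134 CPM with vehicle in MOLM-13. In OCI-AML2 cells BIRC5 had 60.5, 61.9 and 62.4 CPM with selinexor, against 183, 186 and 182 CPM with vehicle. That was 4.51-fold lower in MOLM-13 (-2.17 ± 0.068, SE, log2) and 2.99-fold lower in OCI-AML2 (-1.58 ± 0.052). CDCA8 (borealin), its partner, had 20.1, 20.2 and 19.9 CPM with selinexor, against 70.4, 73.2 and 71.3 CPM with vehicle in MOLM-13. In OCI-AML2 cells CDCA8 had 31.1, 31.2 and 30.9 CPM with selinexor, against 94.6, 97.9 and 93.4 CPM with vehicle. Its replicate libraries were close, and the fall was 3.57-fold in MOLM-13 and 3.07-fold in OCI-AML2. INCENP, the scaffold that activates the kinase Aurora B, had 45.3, 41.7 and 49.9 CPM with selinexor, against 112, 114 and 111 CPM with vehicle in MOLM-13. In OCI-AML2 cells INCENP had 78.8, 73.98 and 75.4 CPM with selinexor, against 166, 166 and 164 CPM with vehicle. INCENP fell less than the other two, 2.47-fold in MOLM-13 and 2.17-fold in OCI-AML2. The kinase itself, AURKB, is not among the 38, and its log2 fold change was -1.87 ± 0.084 (SE) in MOLM-13 and -1.59 ± 0.065 in OCI-AML2.

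**Figure D3:**
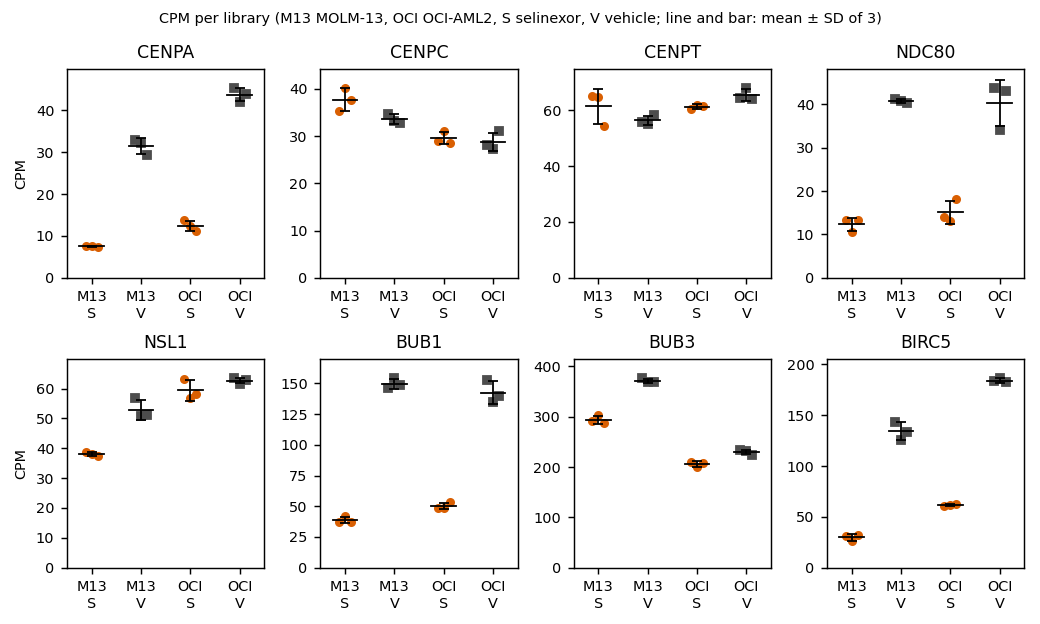
CPM of 8 transcripts in each library, with the mean and SD of 3; orange circles are selinexor and grey squares vehicle, M13 being MOLM-13 and OCI being OCI-AML2. CENPA, NDC80, BUB1 and BIRC5 are far below vehicle in both lines, BUB3 is slightly below it, and CENPC, CENPT and, in OCI-AML2, NSL1 lie beside or within the vehicle libraries.

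Set side by side, the mitotic class had a lower median than the constitutive class in both lines. The median log2 fold change was -1.55 over the 21 mitotic and -1.25 over the 13 constitutive transcripts in MOLM-13. In OCI-AML2 these medians were -1.15 and -0.66. At least 2-fold lower were 17 of 21 mitotic and 7 of 13 constitutive transcripts in MOLM-13, against 3.57% of all genes. In OCI-AML2 these counts were 14 of 21 and 3 of 13, against 2.85% of all genes. The ranges overlapped, from -2.17 to -0.34 for mitotic and from -1.58 to 0.17 for constitutive members in MOLM-13. CENP-A and its loading factors, kept apart, had medians of -1.58 in MOLM-13 and -0.93 in OCI-AML2.

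The sums in each library show the same. The 21 mitotic transcripts summed to 946, 917 and 912 CPM with selinexor, against 2201, 2186 and 2197 CPM with vehicle in MOLM-13, which left 42.2% of the mean vehicle sum. For the 13 constitutive transcripts the sums were 333, 337 and 339 CPM with selinexor, against 607, 593 and 582 CPM with vehicle in MOLM-13, with 56.6% left. Mitotic transcripts therefore lost more of their total. Abundant genes weigh most in these sums. In MOLM-13 with vehicle BUB3 averaged 371 CPM of the mitotic sum, and CENPO 88.5 and CENPT 56.5 CPM of the constitutive one. BUB3 and CENPO fell by little there (1.26-fold and 1.44-fold), and CENPT did not pass the test. In OCI-AML2 the mitotic sum was 1147, 1133 and 1143 CPM with selinexor, against 2347, 2247 and 2335 CPM with vehicle (49.4% left). Its constitutive sum was 454, 452 and 447 CPM with selinexor, against 653, 681 and 662 CPM with vehicle (67.8% left). The ratio of the mitotic to the constitutive sum was 2.85, 2.72 and 2.69 in the selinexor libraries of MOLM-13, against 3.62, 3.69 and 3.78 with vehicle. In OCI-AML2 the ratio was 2.52, 2.51 and 2.56 with selinexor, against 3.596, 3.301 and 3.53 with vehicle. Selinexor and vehicle libraries did not overlap in this ratio in either line.

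With DSN1, NSL1 and MIS12 counted as constitutive, the mitotic and constitutive medians lay further apart, at -1.60 and -0.91 in MOLM-13 and at -1.25 and -0.47 in OCI-AML2. With CENPA, HJURP, MIS18A and OIP5 counted as constitutive they lay closer, at -1.55 and -1.30 in MOLM-13 and at -1.15 and -0.78 in OCI-AML2. CENPC, CENPT, NSL1, BUB3, MIS12 and CENPO were the 6 members with the smallest changes in OCI-AML2, and 3 of them are constitutive and 3 mitotic. As a description over the 38 members, the log2 fold change had a Pearson r of -0.097 in MOLM-13 and -0.29 in OCI-AML2 with the vehicle level, and members of a line share its 6 libraries.

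**Figure D4:**
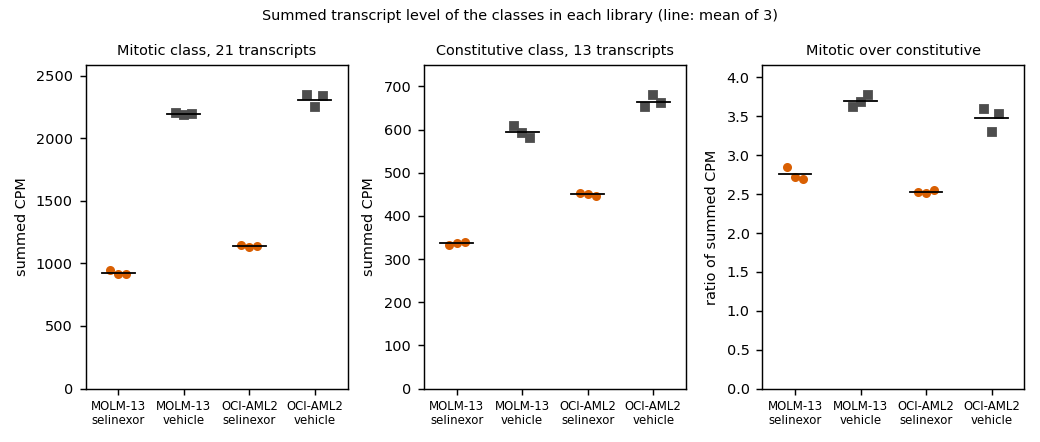
Summed CPM of the 21 mitotic and the 13 constitutive transcripts, and the ratio of the sums, in each of the 12 libraries; orange circles are selinexor, grey squares vehicle and lines the mean of 3. The ratio lies between 2.51 and 2.85 with selinexor and between 3.30 and 3.78 with vehicle.

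The falls were larger in MOLM-13, at 75 nM, than in OCI-AML2, at 200 nM, for most members. Across the 12 libraries the change in MOLM-13 was more negative than that in OCI-AML2 for 26 of 38 (interaction of line and treatment, adjusted p under 0.05, edgeR's quasi-likelihood F test, Benjamini-Hochberg adjusted), against 19.0% of 12530 genes (30.1% in either direction), and it was more positive for 0. The median difference over the 38 was -0.40, beside -0.040 over all genes. Lists outside the 38 differed in the same direction. Of 32 replication fork and origin genes 27 were more negative in MOLM-13 and 0 more positive, with a median of -0.63. Of 12 mitotic kinesins 9 were more negative and 1 more positive (median -0.44). Of 20 further centromere and kinetochore genes 10 were more negative and 0 more positive (median -0.34). By class, 17 of 21 mitotic, 7 of 13 constitutive and 2 of 4 CENP-A and loading transcripts differed.

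SKA1 had the largest difference, -1.16 ± 0.15 (log2, MOLM-13 minus OCI-AML2, SE). Next came CENPH at -0.97 ± 0.13, CENPK at -0.89 ± 0.17, SPC25 at -0.87 ± 0.16, HJURP at -0.85 ± 0.12 and CENPU at -0.82 ± 0.12. These 6 come from 4 roles and were picked as the largest, so every other member had a smaller estimate by choice. CENPH and CENPK are of the same module. There CENPI had -0.55 ± 0.22 (adjusted p = 0.0507) and CENPM -0.35 ± 0.15 (adjusted p = 0.063, edgeR's quasi-likelihood F test, Benjamini-Hochberg adjusted). NUF2, in the complex of SPC25, had -0.77 ± 0.12. CENPA itself had -0.29 ± 0.16 (adjusted p = 0.175, edgeR). Others that missed the threshold for the difference included NDC80 at -0.36 ± 0.16, SPC24 at -0.25 ± 0.12, CENPE at -0.21 ± 0.12 and MIS12 at -0.19 ± 0.14, and missing the threshold does not show that the lines changed equally. CENPC and CENPT were the members with a positive difference, 0.083 ± 0.12 and 0.17 ± 0.095, and neither passed the test. CENPT passed without vehicle library 1 (0.27) or 3 (0.28) of OCI-AML2, but the median over all genes then moved from -0.040 to 0.048 and 0.050. It also passed without selinexor library 3 of MOLM-13 (0.25), where that median was -0.045. Single libraries also decided 4 negative differences, which passed when one was left out: NDC80 without selinexor library 2 of OCI-AML2 (-0.46), CENPI without selinexor library 1 of OCI-AML2 (-0.61), CENPM without selinexor library 1 (-0.49) or vehicle library 3 (-0.40) of MOLM-13, and MIS18A without selinexor library 2 of OCI-AML2 or selinexor library 1 of MOLM-13 (-0.32 each).

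The number of calls depends on the libraries that enter the test. Leaving out the second vehicle library of MOLM-13 left 17 calls, and the median over all genes was then 0.052, where it was -0.040 with all 12. Without vehicle library 1, 2 or 3 of OCI-AML2 that median was 0.048, 0.0485 and 0.050, with 19, 20 and 18 negative calls. The part of this shift of all genes in the lost calls was not tested. Of the 26 calls, 17 held under each of the 17 alternatives tried and 9 did not. Of the 17 alternatives, the call was lost in 15 for CDCA8, 13 for BUB1B, 10 for OIP5, 9 for INCENP, 6 for CENPN, 5 for CENPQ, 4 each for BUB3 and CENPF and 1 for CENPO. The 2 lines ranked the members in a similar order: over the 38, the 2 sets of log2 fold changes had a Pearson r of 0.871 and a Spearman rho of 0.814, given as a description. The authors' deposited table for MOLM-13, with its sign turned to selinexor over vehicle, has an adjusted p under 0.05 for 36 of the 38, against 44.7% of the 14211 genes with an adjusted p in that table.

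**Figure D5:**
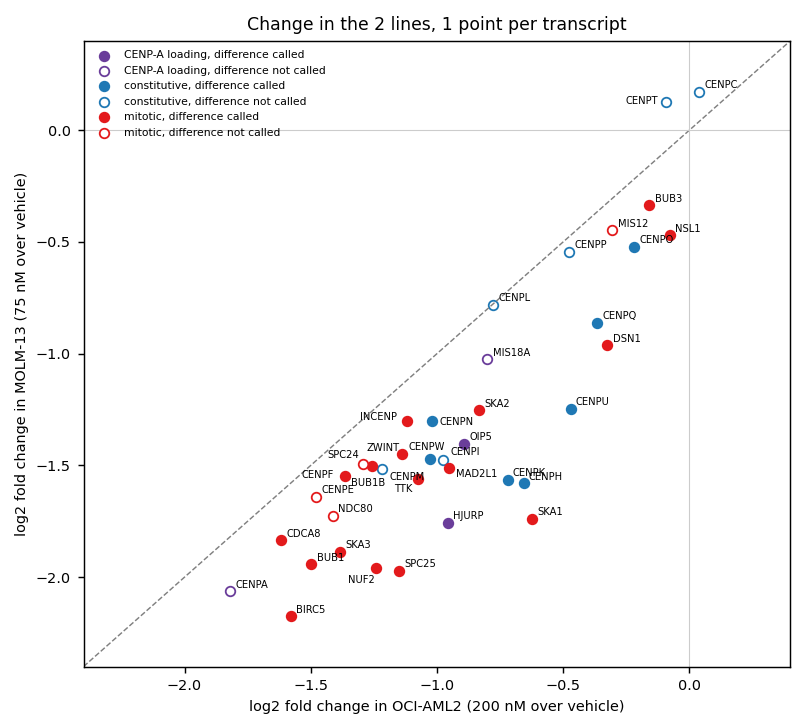
Log2 fold change of each of the 38 transcripts in MOLM-13 (vertical) against OCI-AML2 (horizontal), coloured by class; filled points passed the test of the difference between the lines and the dashed line marks equal change. Nearly all points lie below the dashed line, SKA1, CENPH and CENPK far below it, and CENPC and CENPT lie at the upper right.

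A list of 20 further centromere and kinetochore genes moved in the same way with more exceptions. In MOLM-13, 17 of 20 fell and 0 rose, against 31.8% of all genes lower and 31.8% higher. The median log2 fold change of the 20 there was -0.98. In OCI-AML2, 14 fell and 2 rose, against 31.8% of all genes lower and 31.3% higher, with a median of -0.62. KNL1, the scaffold on which BUB proteins gather, had -1.62 ± 0.074 (log2, SE) in MOLM-13 and -1.34 ± 0.083 in OCI-AML2. SGO1, the shugoshin that protects centromeric cohesion, had -1.93 ± 0.13 in MOLM-13 and -1.13 ± 0.12 in OCI-AML2. TRIP13, the ATPase that disassembles checkpoint complexes, had -1.57 ± 0.074 in MOLM-13 and -1.18 ± 0.050 in OCI-AML2. MAD2L1BP, which helps TRIP13 remodel MAD2, rose in OCI-AML2 (0.21 ± 0.081) and had -0.089 ± 0.088 in MOLM-13. CENPB, which binds a sequence of centromeric satellite DNA, fell by little in both lines (-0.39 ± 0.044 in MOLM-13 and -0.23 ± 0.043 in OCI-AML2). Replication fork and origin genes, a list of 32 outside the kinetochore, also fell. Of these, 30 were lower in MOLM-13, with a median of -1.20, and 28 in OCI-AML2, with a median of -0.63, against 31.8% of all genes in each line.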

How the data were processed

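Libraries were poly(A)-selected without strand information, per the labels' protocols, and aligned with STAR to hg38, per the submitters' processing notes, which also list DESeq2; no source used here gives the annotation or counting tool. For each line the authors deposited whole-number read counts per gene symbol, normalized tables holding a signal equal to the count over a size factor (largest relative difference 9.94e-15), and, for MOLM-13, a table of log2 fold changes, Wald scores and p-values. The deposited signal and log2 values served as checks and the scores were not used.

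Counts passing filterByExpr (at least 10, total at least 15) were TMM-scaled and tested by robust quasi-likelihood in edgeR 4.0.16 (R 4.3.3), with Benjamini-Hochberg adjusted p under 0.05 over all genes. Each line was fitted alone, and the difference between lines as an interaction over 12 libraries. The largest adjusted p among members called was 6.44e-05 in MOLM-13 and 0.00272 in OCI-AML2. The filter removed 0.109% of counts in MOLM-13 and 0.0996% in OCI-AML2. Depths give counting error only. Columns give line and treatment but no replicate number, so numbers follow column order. DESeq2 1.42.0, limma voom 3.58.1, other scalings, no filter, a joint fit, other class assignments and leaving out libraries were alternatives. The procedure was tested on simulated data. Overlaps and exon lengths come from GENCODE on GRCh38. The members and lists were chosen with earlier results of these data known; all 38 members may be named, and genes outside them only from the list of further centromere genes or beside a result. Some genes of the lists are not reported here.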

Additional observations from a re-analysis of the deposited data

Results flagged for a closer look

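For 26 of the 38 transcripts the change with selinexor differed between the lines by the test of the difference itself (edgeR's quasi-likelihood test of the interaction, Benjamini-Hochberg adjustment). The difference, MOLM-13 minus OCI-AML2 on the log2 scale, was negative each time. Of all genes tested, 19.0% were called as more negative in MOLM-13. By role, in CENP-A and its loading factors it was -0.85 for HJURP and -0.56 for OIP5. In the constitutive centromere network it was -0.97 for CENPH, -0.89 for CENPK, -0.33 for CENPN, -0.35 for CENPO, -0.54 for CENPQ, -0.82 for CENPU and -0.49 for CENPW. In the outer kinetochore it was -0.77 for NUF2, -0.87 for SPC25, -0.69 for DSN1, -0.44 for NSL1 and -0.36 for ZWINT. In the spindle checkpoint it was -0.49 for BUB1, -0.29 for BUB1B, -0.23 for BUB3, -0.61 for MAD2L1 and -0.53 for TTK. In the SKA complex it was -1.16 for SKA1, -0.47 for SKA2 and -0.55 for SKA3. In the corona proteins it was -0.23 for CENPF. In the chromosomal passenger complex it was -0.64 for BIRC5, -0.27 for CDCA8 and -0.23 for INCENP. Without vehicle library 2 of MOLM-13, 9 of these differences no longer passed: OIP5 (-0.38), CENPN (-0.25), CENPO (-0.22), CENPQ (-0.42), BUB1B (-0.18), BUB3 (-0.14), CENPF (-0.13), CDCA8 (-0.16) and INCENP (-0.13). All of them but CENPO also missed the threshold without vehicle library 3 of OCI-AML2, with CENPN at -0.20, BUB3 at -0.12, CDCA8 at -0.16 and INCENP at -0.13. Without vehicle library 1 of OCI-AML2, those that missed it were OIP5 (-0.45), CENPN (-0.21), BUB1B (-0.22), BUB3 (-0.15), CENPF (-0.13), CDCA8 (-0.17) and INCENP (-0.14), and without its vehicle library 2 they were CENPQ (-0.37), BUB1B (-0.14), BUB3 (-0.14), CENPF (-0.14), CDCA8 (-0.20) and INCENP (-0.14). Leaving out any vehicle library named so far also moved the median over all genes, from -0.040 to between 0.048 and 0.052. The part of that shift in the lost calls was not tested. Leaving out another vehicle library of MOLM-13 or a selinexor library of either line ended the call of CDCA8 in 7 cases, BUB1B in 6, OIP5 in 4, INCENP in 2, and CENPN and CENPQ in 1 each. Line and dose go together, and their parts cannot be told apart. Groups of 3 libraries are too small for a test of single outlying libraries.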

How the results depend on the processing

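Counts of lower members were 36 in MOLM-13 and 35 in OCI-AML2 under each of the 12 alternatives run per line. No member's fall lost its call. Upper quartile scaling gave constitutive medians of -1.18 in MOLM-13 and -0.60 in OCI-AML2, and the joint fit gave -0.61 in OCI-AML2; leaving out 1 library gave constitutive medians from -1.29 to -1.12 in MOLM-13 and -0.70 to -0.60 in OCI-AML2, and mitotic medians from -1.64 to -1.49 in MOLM-13. With DSN1, NSL1 and MIS12 as constitutive, the constitutive median was -0.91 in MOLM-13 and -0.47 in OCI-AML2 and the mitotic one -1.25 in OCI-AML2. With CENPA, HJURP, MIS18A and OIP5 as constitutive, the constitutive median was -1.30 in MOLM-13 and -0.78 in OCI-AML2, closer to the mitotic one. The mitotic median was the lower one each time. In MOLM-13, CENPC and CENPT passed the test as higher under upper quartile scaling (0.24, adjusted p = 0.0103, and 0.19, adjusted p = 0.0115), CENPC also without selinexor library 1 (0.21, adjusted p = 0.0429) and CENPT without selinexor library 3 (0.20, adjusted p = 0.0133). Their adjusted p over the alternatives ranged from 0.0103 to 0.284 and from 0.0115 to 0.386. Calls of a difference between the lines numbered 26, and 23 with DESeq2's size factors, 21 with upper quartile scaling, 20 with DESeq2 and 17 to 26 leaving out 1 library, the lowest without vehicle library 2 of MOLM-13. The CENPL difference, not called, turned to 0.0048 with upper quartile scaling and ranged from -0.097 to 0.064 leaving out 1 library; that of CENPP ranged from -0.25 to 0.056 and the CENPC change in OCI-AML2 from -0.0053 to 0.093. The cause was not tested. No paired analysis was possible because the columns carry no replicate numbers. With 3 libraries a group, small changes of low transcripts such as CENPI and OIP5 have wide errors.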
